A study of Mus musculus with 15 samples.

Results

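Siglecs are cell surface receptors that read sialic acids, and 6 murine Siglec genes (Cd22, Siglecg, Siglece, Cd33, Siglec1 and Siglech), of the 38924 gene identifiers counted, are described here over 5 sorted mononuclear phagocyte (MP) subtypes. The list was set with measured values in view, because Cd22 had been seen high in splenic CD4+ DCs, so Cd22 is given as a description without a test and the other 5 genes were tested. All 6 passed the filter on low counts. The 15 libraries covered CD8+ and CD4+ dendritic cells (DCs) and Ly6C+ monocytes of the spleen, and CD103+ and CD11b+ DCs of the lymph nodes (LNs) that drain the lung, with 3 libraries for each. All came from untreated female C57BL/6 wild-type mice, aged 6 to 8 weeks by the labels and up to 10 weeks by the study's methods, and each library pooled cells of 5 mice. LNs and spleens were taken from different cohorts, and the gate for LN DCs asked for high surface MHC II, which means that organ, cohort and gate cannot be told apart. Before the sort, CD11c beads were used for DCs and CD11b beads for monocytes. Splenic CD8+ and LN CD103+ DCs are called DC1 here, and splenic CD4+ and LN CD11b+ DCs DC2. The libraries of a subtype are separate pools, and p values measure the spread between pools.

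Siglecs carry an outer immunoglobulin-like domain that binds sialic acid at the tips of glycans, on the same cell or on a neighbor. Most of them end in a cytoplasmic tail with immunoreceptor tyrosine-based inhibitory motifs (ITIMs), which when phosphorylated recruit the phosphatase encoded by Ptpn6 and dampen activating receptors, whereas others pair with an activating adaptor such as the one encoded by Tyrobp, or have no signaling motif. CD22 is best known as an inhibitory co-receptor of B cells, Siglec-G as its relative on B cells and DCs, Siglec-E and CD33 as receptors of myeloid cells, sialoadhesin (Siglec1) as a macrophage receptor that captures sialylated particles, and Siglec-H as a marker of plasmacytoid DCs.

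In mm10 coordinates, Cd22 (ENSMUSG00000030577) lies on the minus strand at chr7:30865402-30880342. Siglecg (ENSMUSG00000030468, chr7:43408204-43418358, plus strand), Cd33 (ENSMUSG00000004609, chr7:43527456-43533171, minus strand) and Siglece (ENSMUSG00000030474, chr7:43651070-43660161, minus strand) lie near one another on the same chromosome. Siglech (ENSMUSG00000051504) lies at chr7:55768178-55778925 on the plus strand, and Siglec1 (ENSMUSG00000027322) at chr2:131069220-131086765 on the minus strand. No exon of the 6 genes overlapped an exon of another gene.

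The ends of the receptors differed in their ITIMs. The last 100 residues of the longest coding transcript of each gene were searched for an ITIM, taken as a tyrosine with isoleucine, leucine, valine or serine 2 positions before it and isoleucine, leucine or valine 3 positions after it. Cd22 had 4 matches, Siglecg had 3 and Siglece had 1, whereas Cd33, Siglec1 and Siglech had 0. The coding bases of these matches are shown because the genes that have them, Cd22, Siglecg and Siglece, are also the ones whose highest level was in splenic CD4+ DCs, as described next. Each is an exonic coding sequence of GRCm38, 5′ to 3′ on the strand of the gene, with the tyrosine codon in capitals.
Cd22, chr7:30867494-30867511: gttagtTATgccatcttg
Cd22, chr7:30867033-30867050: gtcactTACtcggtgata
Cd22, chr7:30866600-30866617: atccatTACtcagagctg
Cd22, chr7:30866540-30866557: gtagacTATgtgaccctc
Siglece, chr7:43651585-43651602: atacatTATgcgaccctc
Siglecg, chr7:43412688-43412705: ctggacTACatcaatgtg
Siglecg, chr7:43417979-43417996: ctccacTATgctgctctc
Siglecg, chr7:43418048-43418065: tctgatTACacagaggtc
The stretch searched was set by length and not by a mapped membrane boundary. A match is a description of letters, and phosphorylation was not measured.

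Cd22 was high in splenic CD4+ DCs and low in the other subtypes. Its level, as counts per 1000000 counts of the library after scaling for composition (CPM), was 185, 259 and 194 in the splenic CD4+ DC libraries, a mean of 213 ± 40.4 (SD, n = 3). It was 9.91, 17.8 and 8.58 CPM in splenic CD8+ DCs and 20.2, 16.4 and 7.51 CPM in LN CD11b+ DCs. In LN CD103+ DCs it was 45.5, 1.99 and 0.993 CPM, and in Ly6C+ monocytes 5.31, 25.2 and 9.73 CPM. Every splenic CD4+ DC library was above the other 12 libraries, and the lowest of them was 4.08 times the highest library elsewhere. Of all genes tested, 4.06% were highest in splenic CD4+ DCs without overlap, and this pattern is what singled out Cd22. The mean in splenic CD4+ DCs was 17.6-fold that in splenic CD8+ DCs, 14.5-fold that in LN CD11b+ DCs, 15.9-fold that in monocytes and 13.2-fold that in LN CD103+ DCs. The other 4 subtypes overlapped one another. These are bulk libraries, in which fewer cells of a type and less RNA per cell cannot be told apart.

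Since CD22 is a B cell receptor, its counts were set beside those of Cd79a and Cd79b, the signaling chains of the B cell antigen receptor, which differed from each other. In splenic CD4+ DCs Cd79a was at 3.86, 0 and 0.832 CPM, which gave 48 and 234 counts of Cd22 per count of Cd79a in replicates 1 and 3 and no ratio in replicate 2. The same ratio was 0.903, 1.89 and 0.273 in LN CD103+ DCs and 1.81, 8.62 and 0.567 in LN CD11b+ DCs. It was 4.37, 66 and 37.5 in splenic CD8+ DCs and 13.5, 64.8 and 10.6 in monocytes, where Cd79a had 2 to 19 counts a library, so the ratio of splenic CD4+ DCs overlapped with theirs although the level of Cd22 did not. Within splenic CD4+ DCs the library with the most Cd79a, replicate 1, had the least Cd22, whereas the one with the most Cd79b, replicate 2, had the most Cd22. Cd79a had 30, 0 and 5 counts there, and these orders of 3 libraries were not tested. Cd79b was at 53.4, 70.8 and 54.9 CPM in splenic CD4+ DCs, at 19.9, 9.17 and 4.46 CPM in splenic CD8+ DCs and at 23.4 to 28.9 CPM in monocytes, so that, like Cd22, it was higher in every splenic CD4+ DC library than in the other splenic libraries, although against monocytes it did not pass the test (log2 fold change -1.19 ± 0.73, monocytes minus splenic CD4+ DCs, edgeR adjusted p = 0.190). It was at 36.5 to 39.97 CPM in LN CD11b+ DCs and at 68.3, 2.81 and 3.64 CPM in LN CD103+ DCs. Splenic CD4+ DCs had 3.47, 3.66 and 3.54 counts of Cd22 per count of Cd79b, and the other 12 libraries had 0.184 to 1.94. Pax5, a transcription factor that defines B cells, had 0 counts in all 6 splenic DC libraries. It had 17, 0 and 4 counts in the LN CD103+ DC libraries, 18, 0 and 7 in the LN CD11b+ DC libraries and 0, 0 and 1 in the monocyte libraries.

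LN CD103+ DC replicate 1 stood apart, with 50.3 CPM of Cd79a and the highest Cd22 outside splenic CD4+ DCs. Without it the mean of Cd22 in splenic CD4+ DCs was 143-fold that in LN CD103+ DCs, and the next subtype was LN CD11b+ DCs, with a ratio of 14.5. Of the list of 13 B cell markers counted, splenic CD4+ DC libraries had a count for 10 to 12 and LN CD103+ DC libraries for 11 to 13. The list summed to between 368 and 486 CPM in splenic CD4+ DCs, and for splenic CD8+ DCs the sum was 382 to 459.7 CPM. LN CD103+ DCs had 189.6 to 668 CPM of these genes, LN CD11b+ DCs 211 to 419.5 CPM and monocytes 372 to 545 CPM. In the splenic subtypes most of the sum was Ighm, whose mean was 336 CPM in CD4+ DCs and 349 CPM in monocytes, so the sum mainly shows that gene. Of the 12 B cell markers tested, Cd79b, Cr2 and Blk were lower and Fcrla was higher in splenic CD8+ than CD4+ DCs by edgeR, where 27.4% of all genes were called. The log2 fold changes were -2.41 ± 0.77 for Cd79b (edgeR adjusted p = 0.0252), -4.31 ± 0.99 for Cr2, a complement receptor (0.00329), and -5.07 ± 1.38 for Blk, a kinase of B cells (0.0114). Blk was at 7.08, 2.04 and 4.82 CPM in splenic CD4+ DCs and at 0.239, 0.135 and 0 CPM in splenic CD8+ DCs, and Cr2 was at 2.45 to 14.99 CPM against 0 to 0.955 CPM. Monocytes were lower than splenic CD4+ DCs in Ms4a1, Cr2, Blk and Tnfrsf13c and higher in Igkc, where 48% of all genes were called. The part of these markers in the level of Cd22 was not tested. Leaving out LN CD103+ DC replicate 1 changed no call of Siglecg, Siglece or Siglec1 between LN CD103+ DCs and another subtype, and the calls of Cd33 and Siglech that it changed are given beside them.

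**Figure D1:**
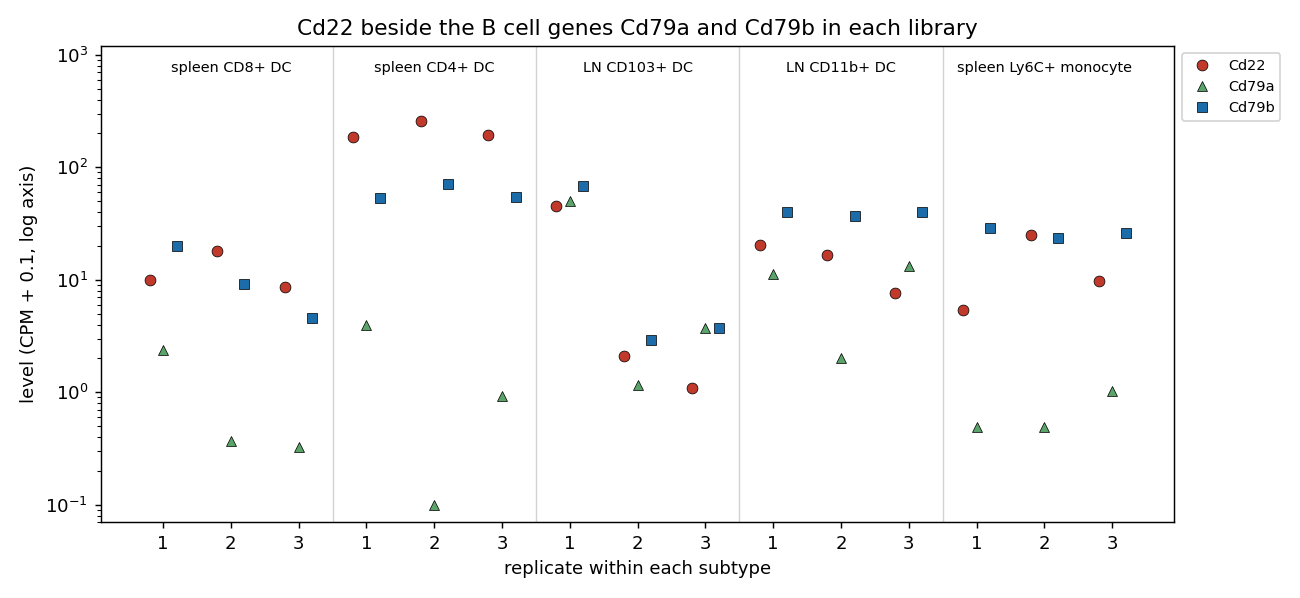
Level of Cd22, Cd79a and Cd79b (CPM + 0.1, log axis) in each of the 15 libraries, grouped by subtype, 1 symbol per gene. In the 3 splenic CD4+ DC libraries Cd22 was at 185 to 259, Cd79b at 53.4 to 70.8 and Cd79a at 0 to 3.86 CPM, whereas in LN CD103+ DC replicate 1 they were at 45.5, 68.3 and 50.3 CPM.

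The 250 bases before the transcription start of Cd22, Siglecg and Siglece are shown, since these 3 genes share their highest subtype. They are from RefSeq (GRCm38.p6), 5′ to 3′ on the strand of the gene. For Siglecg RefSeq gives more than 1 start, and the first in the table is used. The windows of Cd22 and Siglecg lie partly or wholly inside the genes as the annotation bounds them, because Ensembl lists transcripts that start further upstream, and the window of Siglece ends where the gene begins.
Cd22, chr7:30879029-30879278, minus strand: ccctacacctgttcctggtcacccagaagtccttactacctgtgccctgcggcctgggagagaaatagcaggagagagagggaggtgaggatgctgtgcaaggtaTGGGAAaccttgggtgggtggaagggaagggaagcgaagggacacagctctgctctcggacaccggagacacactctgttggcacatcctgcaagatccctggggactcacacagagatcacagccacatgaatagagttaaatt
Siglecg, chr7:43407989-43408238, plus strand: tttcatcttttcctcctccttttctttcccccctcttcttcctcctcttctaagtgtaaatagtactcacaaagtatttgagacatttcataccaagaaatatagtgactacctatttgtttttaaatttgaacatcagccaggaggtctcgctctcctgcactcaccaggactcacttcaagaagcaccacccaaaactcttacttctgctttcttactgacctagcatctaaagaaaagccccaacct
Siglece, chr7:43660162-43660411, minus strand: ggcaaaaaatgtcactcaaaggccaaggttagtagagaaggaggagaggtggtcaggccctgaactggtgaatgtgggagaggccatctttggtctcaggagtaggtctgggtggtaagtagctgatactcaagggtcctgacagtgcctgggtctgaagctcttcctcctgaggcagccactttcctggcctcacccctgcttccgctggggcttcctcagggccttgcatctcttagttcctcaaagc
The windows were searched on both strands for 4 sequences bound by factor families active in DCs, namely GAGGAAGT (a PU.1-like ETS site), GGAA followed after 2 bases by GAAA (an ETS-IRF composite element), TGAGTCA (an AP-1 site) and TGGGAA (the core read by RBPJ). The only match in the 3 windows shown, marked in capitals, was TGGGAA in the window of Cd22, which starts 145 bases before the transcription start. That sequence is common, as 21.6% of 32851 promoters had it in the same window, against 2.44% for the PU.1-like site, 2.30% for the composite element and 4.46% for the AP-1 site. Siglech, whose window is not shown, had it as well, on the opposite strand from 154 bases before its start.

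Siglecg and Siglece also had their highest levels in splenic CD4+ DCs. Siglecg, whose product is an inhibitory receptor that binds CD24, was at 182, 132 and 166 CPM there. It was at 53.6, 42.7 and 25.6 CPM in splenic CD8+ DCs and at 37.1, 37.8 and 42.5 CPM in LN CD103+ DCs. It was at 83.2, 60.6 and 38.6 CPM in LN CD11b+ DCs and at 6.29, 3.5 and 9.86 CPM in monocytes. All splenic CD4+ DC libraries were above, and all monocyte libraries below, the rest, while splenic CD8+, LN CD103+ and LN CD11b+ DCs overlapped. Siglecg was lower in splenic CD8+ than splenic CD4+ DCs by a log2 fold change of -1.98 ± 0.32 (SE), with an adjusted p of 0.000162 in edgeR's quasi-likelihood test. LN CD11b+ DCs were also lower than splenic CD4+ DCs (log2 fold change -1.39 ± 0.32, adjusted p = 0.00223), and so were monocytes (-4.63 ± 0.37, adjusted p = 1.42e-08). LN CD103+ and splenic CD8+ DCs, the DC1 pair, were at 39.1 ± 2.97 and 40.7 ± 14.1 CPM (SD, n = 3) and did not pass the test (log2 fold change -0.06 ± 0.32, edgeR adjusted p = 0.905).

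Siglece, a myeloid inhibitory receptor, was at 53.8, 51.6 and 46.1 CPM in splenic CD4+ DCs and at 17.3, 31.9 and 20.9 CPM in monocytes. It was at 6.69, 3.10 and 1.60 CPM in splenic CD8+ DCs and at 4.62, 6.59 and 8.39 CPM in LN CD11b+ DCs. LN CD103+ DCs had 0, 0 and 1 count, so Siglece was nearly undetected there. The splenic CD4+ DC libraries did not overlap any other subtype, nor did the monocyte libraries, and splenic CD8+ and LN CD11b+ DCs overlapped each other. By edgeR, Siglece was lower in splenic CD8+ than splenic CD4+ DCs (log2 fold change -3.73 ± 0.41, edgeR adjusted p = 2.33e-06) and lower in LN CD11b+ than splenic CD4+ DCs (-2.97 ± 0.40, adjusted p = 1.30e-05). The mean in splenic CD4+ DCs was 1099-fold that in LN CD103+ DCs, with a 95% counting interval of 197 to 43420 for the single count (adjusted p = 3.50e-09), and the mean in LN CD11b+ DCs was 142-fold that in LN CD103+ DCs, with an interval of 25.5 to 5618 (adjusted p = 1.31e-05). Monocytes were below splenic CD4+ DCs by a log2 fold change of -1.10 ± 0.36 (edgeR adjusted p = 0.0181). That call was lost without monocyte replicate 1 (adjusted p = 0.0840) or replicate 3 (0.0688), with a range of 0.00185 to 0.0840 over 22 alternatives.

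The sum of macrophage markers was also highest in splenic CD4+ DCs, where 11 or 12 of the 12 had a count in each library. The 12 macrophage markers summed to between 1079 and 1363 CPM in splenic CD4+ DCs and between 667 and 981 CPM in LN CD11b+ DCs. Monocytes had 445 to 504 CPM, LN CD103+ DCs 263 to 306 CPM and splenic CD8+ DCs 191 to 298 CPM of them. The lead over LN CD11b+ DCs rests on Adgre1, which encodes F4/80, had a mean of 663 CPM in splenic CD4+ DCs against 117 CPM in LN CD11b+ DCs, and was also the gene whose pattern was most like that of Siglece. Of the 11 markers tested, Marco, C1qa, C1qb, C1qc and Timd4 were higher and only Adgre1 was lower in LN CD11b+ than splenic CD4+ DCs by edgeR, where 33.1% of all genes were called. C1qb, a chain of complement C1q, was at 280, 202 and 134 CPM in LN CD11b+ DCs and at 68.2, 44.8 and 98.1 CPM in splenic CD4+ DCs, a difference of 1.55 ± 0.30 on the log2 scale (edgeR adjusted p = 0.000544). In splenic CD8+ against CD4+ DCs 7 of the 11 were lower and 0 higher, against 27.4% of all genes. The part of these markers in the levels of Cd22, Siglecg, Siglece and Siglec1 was not tested.

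**Figure D2:**
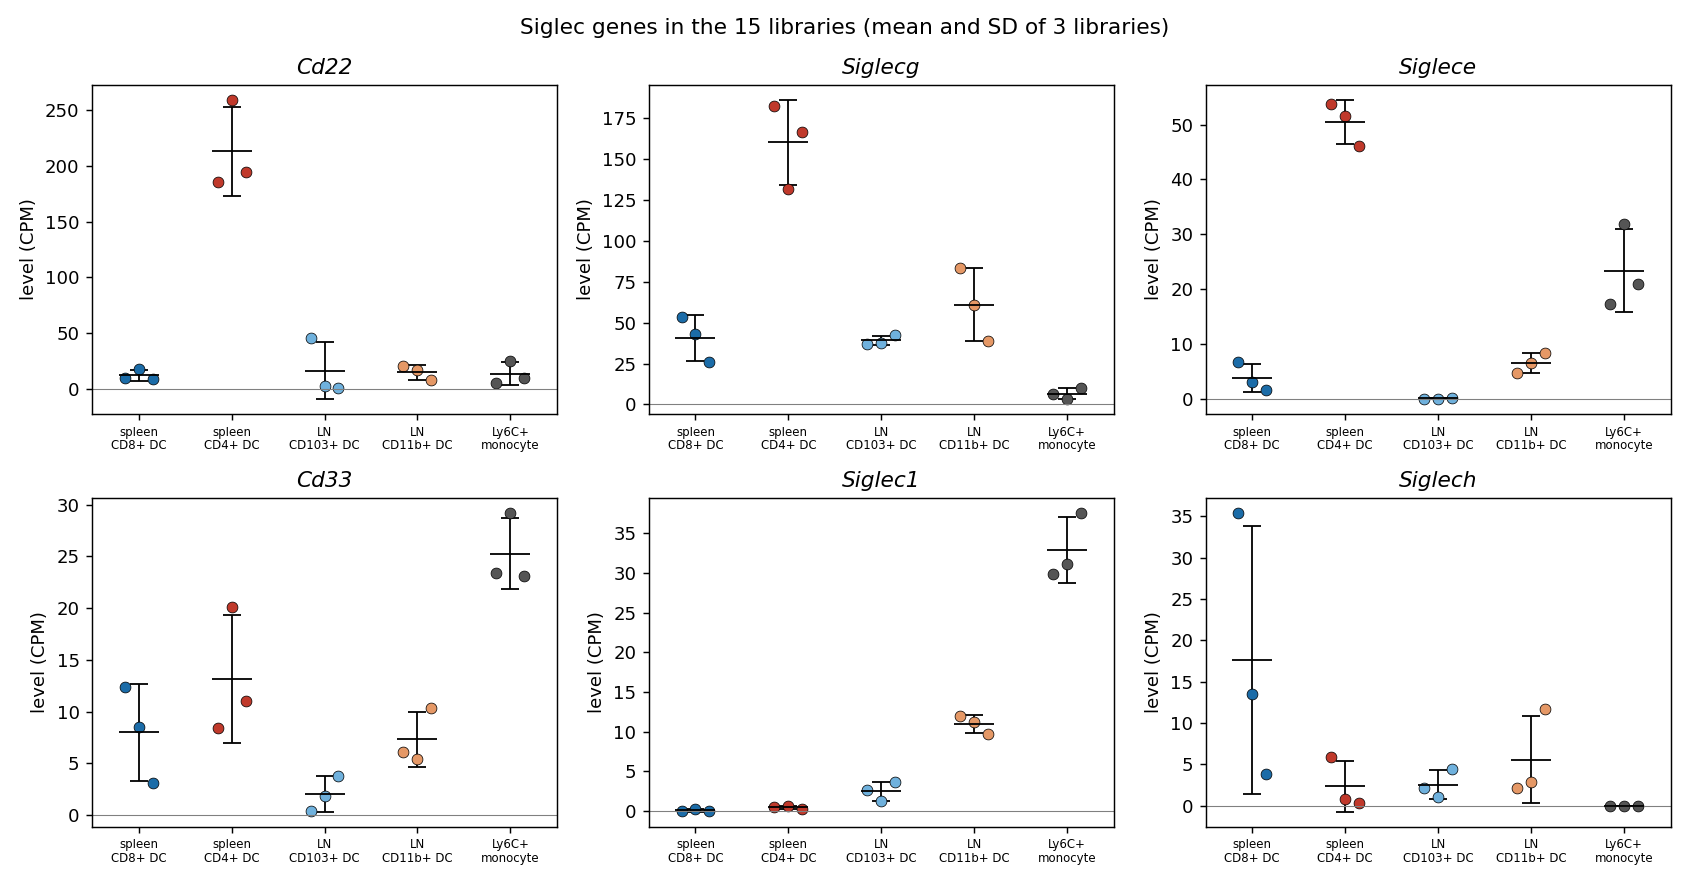
Level of each Siglec gene (CPM) in the 15 libraries, by subtype, with points for libraries and bars for the mean and SD of 3 libraries; axes differ between panels. Cd22, Siglecg and Siglece were highest in splenic CD4+ DCs, Cd33 and Siglec1 in Ly6C+ monocytes, and Siglech varied from 3.89 to 35.5 CPM within splenic CD8+ DCs.

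Cd33 and Siglec1 had their highest levels in Ly6C+ monocytes. Cd33, the gene that gives the CD33-related Siglecs their name, was at 23.4, 29.2 and 23.1 CPM in monocytes and at 8.37, 20.1 and 11 CPM in splenic CD4+ DCs. It was at 12.4, 8.49 and 3.09 CPM in splenic CD8+ DCs, at 6.12, 5.42 and 10.4 CPM in LN CD11b+ DCs, and at 0.418, 1.87 and 3.81 CPM in LN CD103+ DCs. The monocyte libraries were above all others, but the gap to the highest splenic CD4+ DC library was 1.15-fold, and the difference between monocytes and splenic CD4+ DCs did not pass the test (log2 fold change 0.95 ± 0.49, edgeR adjusted p = 0.118). It was called in 2 of 22 alternatives, without a filter (adjusted p = 0.0225) and with only the subtypes compared (0.0396), over a range of 0.0225 to 0.313. The 3 other DC subtypes were below monocytes, by 1.66 ± 0.50 on the log2 scale for splenic CD8+ DCs (adjusted p = 0.0115), 1.81 ± 0.51 for LN CD11b+ DCs (adjusted p = 0.00650) and 3.66 ± 0.57 for LN CD103+ DCs (adjusted p = 2.57e-05). The first of these was at an adjusted p of 0.0506 without splenic CD8+ DC replicate 3, the highest of 22 alternatives that began at 2.04e-05. In the LN, Cd33 was lower in CD103+ than CD11b+ DCs (log2 fold change -1.85 ± 0.58, edgeR adjusted p = 0.0405), a call lost in 8 of 22 alternatives (adjusted p 0.000179 to 0.141). It was lost without LN CD103+ DC replicate 1 or 2, without LN CD11b+ DC replicate 1 or 3, without any 1 of the monocyte libraries, and with only the subtypes compared (adjusted p = 0.0611).

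Siglec1, which encodes sialoadhesin (CD169), separated monocytes and LN DCs from splenic DCs. Its level was 29.9, 31.1 and 37.6 CPM in monocytes, 11.9, 11.3 and 9.71 CPM in LN CD11b+ DCs and 2.65, 1.29 and 3.64 CPM in LN CD103+ DCs. The splenic DCs had 0, 2 and 0 counts in CD8+ and 4, 4 and 2 counts in CD4+ libraries. The subtypes followed one another without overlap from monocytes through LN CD11b+ and LN CD103+ DCs to the splenic DCs. The lowest splenic CD4+ library (0.333 CPM) and the highest splenic CD8+ library (0.270 CPM) had 2 counts each, so their order is not resolved. Monocytes were above LN CD11b+ DCs by 1.58 ± 0.36 on the log2 scale (edgeR adjusted p = 0.00132). LN CD11b+ DCs were above splenic CD4+ DCs by 4.39 ± 0.49 (adjusted p = 1.66e-06) and LN CD103+ above splenic CD8+ DCs by 4.65 ± 0.69 (adjusted p = 2.21e-05). Splenic CD8+ DCs had 2 counts in all, and the ratio of LN CD103+ DCs to them was 31.0, with a 95% counting interval of 8.58 to 256, and that of monocytes 403, with an interval of 112 to 3327. In the LN, CD103+ DCs were below CD11b+ DCs by a log2 fold change of -2.15 ± 0.40 (edgeR adjusted p = 0.00107). Splenic CD8+ and CD4+ DCs did not pass the test against each other (log2 fold change -2.41 ± 0.89, edgeR adjusted p = 0.0514), though 6 of 21 alternatives called the difference (adjusted p 0.00871 to 0.528).

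Markers of other cells moved with organ and with the monocyte gate. All 8 T cell markers were called higher in LN than in splenic DCs of either lineage by edgeR (45.6% of all genes called in DC1 and 33.1% in DC2), with a summed level of 89.2 to 165 CPM in LN DCs and at most 13.4 CPM in splenic DCs. The summed level of 7 neutrophil markers, led by Ngp, Mmp8 and Ltf, was 225 to 346 CPM in monocytes and at most 5.74 CPM in any DC library, with a count for 6 of the 7 in each monocyte library and for 1 to 3 in each DC library. Ly6g, the gene of the neutrophil antigen, had a mean of 0.219 CPM in monocytes. Their part in the levels of Siglec1, Siglece and Cd33, which neutrophils or macrophages can also express, was not tested.

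Siglech varied widely between libraries of the same subtype. It was at 35.5, 13.5 and 3.89 CPM in splenic CD8+ DCs, at 5.92, 0.852 and 0.333 CPM in splenic CD4+ DCs, at 2.09, 1.05 and 4.47 CPM in LN CD103+ DCs and at 2.15, 2.93 and 11.7 CPM in LN CD11b+ DCs. All 3 monocyte libraries had 0 counts. The DC subtypes overlapped one another, and the lowest splenic CD8+ DC library was below the highest library of each other DC subtype. Against a floor of 3 counts over the monocyte libraries, monocytes were at least 135-fold lower than splenic CD8+ DCs, 42.9-fold lower than LN CD11b+ DCs, 19.5-fold lower than LN CD103+ DCs and 18.2-fold lower than splenic CD4+ DCs. The edgeR adjusted p values, in that order, were 0.000174, 0.00161, 0.00683 and 0.00807. With limma the last 2 calls were lost (adjusted p = 0.115 and 0.191), and the last was lost without splenic CD4+ DC replicate 1 (0.0918). Splenic CD8+ DCs were above splenic CD4+ DCs by 2.82 ± 0.91 on the log2 scale (edgeR adjusted p = 0.0287). The call was lost without splenic CD8+ DC replicate 1 (adjusted p = 0.180), without splenic CD4+ DC replicate 2 (0.109) or 3 (0.0779), and with DESeq2 (0.0508), over a range of 6.22e-08 to 0.180. LN CD103+ DCs were below splenic CD8+ DCs by a log2 fold change of -2.82 ± 0.91 (edgeR adjusted p = 0.0177), a call lost without splenic CD8+ DC replicate 1 (0.141) and without LN CD103+ DC replicate 1 (0.0545) or 2 (0.0758), over a range of 2.43e-08 to 0.141. Of 8 plasmacytoid DC markers, Klk1 and Cox6a2 had means of 0.175 and 0.164 CPM in splenic CD8+ DCs, and Ccr9 had 62.6 CPM there against 1.48 to 12.9 CPM in the other subtypes. Of the 6 tested, 2 were higher in splenic CD8+ than CD4+ DCs by edgeR, namely Ccr9 and Pacsin1. In the same comparison 1, Spib, was lower and 3 were not called, where 27.4% of all genes were called. In splenic CD8+ DCs the list summed to between 157 and 242 CPM. The sum was 146 to 174 CPM for splenic CD4+ DCs, 192 to 223 CPM for LN CD103+ DCs, 234 to 270 CPM for LN CD11b+ DCs and 114 to 136 CPM for monocytes. The part of plasmacytoid DCs in the Siglech level was not tested.

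Compared per unit of length, in the deposited length-scaled transcript values (TPM), the subtypes carried different sets of Siglecs. In splenic CD4+ DCs Cd22 was at 122 ± 10.2 TPM, Siglecg at 83.9 ± 21.2 and Siglece at 67.9 ± 7.12 (SD, n = 3), followed by Cd33 at 12.4 ± 4.36. In monocytes Siglece led at 32.5 ± 9.65 TPM, with Cd33 at 25.3 ± 2.84 and Siglec1 at 11.9 ± 1.44, though the libraries of Siglece (25.0 to 43.4 TPM) and Cd33 (23.1 to 28.5 TPM) overlapped. In the other 3 subtypes Siglecg had the highest level of the 6, at 20.4 ± 7.50 TPM in splenic CD8+, 18.4 ± 1.78 in LN CD103+ and 30.2 ± 10.9 in LN CD11b+ DCs. The lead over the second gene was within the range of the libraries in splenic CD8+ DCs, where Siglech reached 26.1 TPM, and in LN CD103+ DCs, where Cd22 reached 23.8 TPM in replicate 1.

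Over the 10 pairwise comparisons of subtypes, 37 of 50 tests of the 5 Siglec genes passed, a share of 74.0%, against 39.7% of the tests of all 14456 genes. The comparisons share libraries, and the genes were chosen with results known. In splenic CD8+ against CD4+ DCs 3 of 5 were called, Siglech higher and Siglecg and Siglece lower, against 27.4% of all genes. In LN CD103+ against CD11b+ DCs 3 of 5 were called, with Cd33, Siglec1 and Siglece lower, against 12.9% of all genes. Between organs, LN CD103+ against splenic CD8+ DCs had Siglec1 higher and Cd33, Siglece and Siglech lower (45.6% of all genes called), and LN CD11b+ against splenic CD4+ DCs had Siglec1 higher and Siglece and Siglecg lower (33.1%). Across lineages and organs, LN CD103+ against splenic CD4+ DCs had Siglec1 higher and Cd33, Siglece and Siglecg lower (47%), and LN CD11b+ against splenic CD8+ DCs had Siglec1 alone higher (39.9%). Monocytes had Cd33, Siglec1 and Siglece higher and Siglecg and Siglech lower than splenic CD8+ (42.1%), LN CD11b+ (47.8%) and LN CD103+ DCs (53.2%), which is 5 of 5 in each. Against splenic CD4+ DCs they had Siglec1 higher and Siglece, Siglecg and Siglech lower (48%). Of the 5 tested genes, Siglecg and Siglece had every splenic CD4+ DC library above all other libraries, against 4.06% of all genes. Cd33 and Siglec1 had every monocyte library above all others, against 14%. Cd22 also had the splenic CD4+ DC pattern, but that pattern chose it, so it is not counted. In 0 of the 6 genes were all libraries of splenic CD8+, LN CD103+ or LN CD11b+ DCs above the rest, against 5.27%, 8.16% and 2.01% of all genes.

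**Figure D3:**
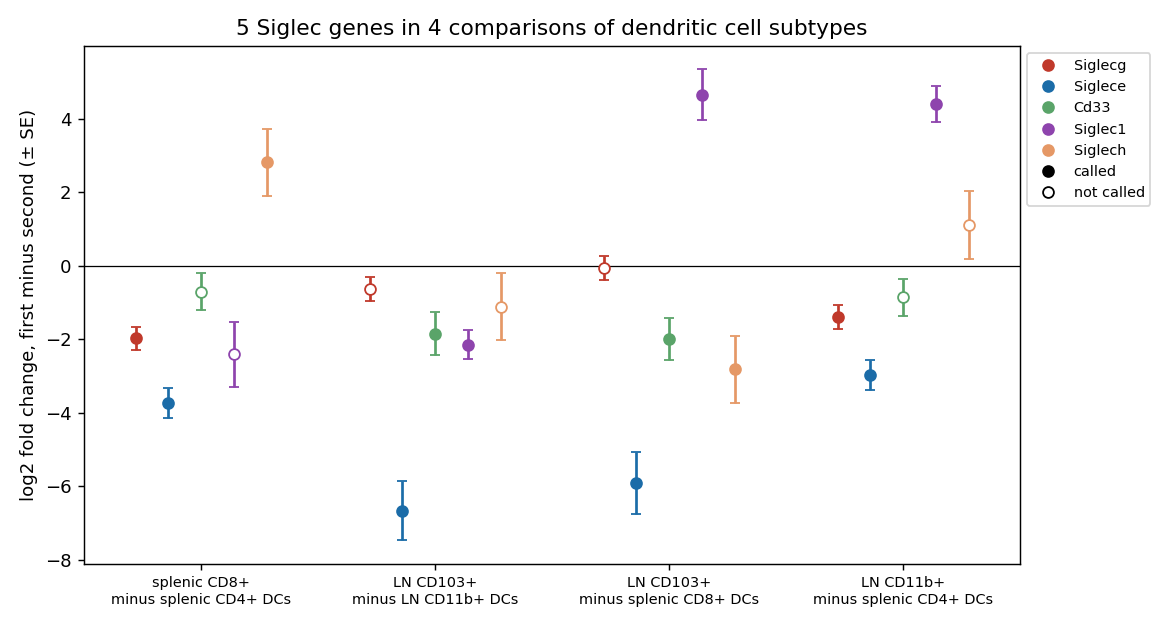
Log2 fold change (± SE) of the 5 tested Siglec genes in 4 comparisons of DC subtypes, with filled points for genes called at an adjusted p under 0.05 and open points for the rest. Siglec1 was higher in LN than spleen in both lineages (4.65 and 4.39), and Siglece was lower in DC1 than DC2 in both organs (-3.73 and -6.67).

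Whether the difference between organs was itself different between DC1 and DC2 was tested as an interaction. By edgeR 0 of the 5 genes passed, where 11.2% of all genes did. At an unadjusted p under 0.05 there were 3 of 5. DESeq2 and limma each called 1 of 5, but not the same gene. DESeq2 called Siglecg (1.40, DESeq2 adjusted p = 0.0262). The limma call was Siglec1, with a sign opposite to that of edgeR (-1.21 against 0.26). By edgeR the nearest were Siglech at -3.93 ± 1.29 (edgeR adjusted p = 0.0603) and Siglecg at 1.33 ± 0.45 (edgeR adjusted p = 0.0624). Siglecg passed in 9 of 22 alternatives and Siglech in 4.

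The genes with the pattern most like each Siglec gene were taken from 10146 genes, by the root mean square difference of centered log2 CPM over 15 libraries. For Cd22 they were Ggt5 (1.09), Fcrl1 (1.13), Tgm2 (1.16), Sash1 (1.18) and Gm15925 (1.21). Tgm2, a transglutaminase, was at 877 ± 266 CPM (SD, n = 3) in splenic CD4+ DCs against 16.7 to 61.2 CPM elsewhere, and Ggt5, a gamma-glutamyltransferase, at 83.1 ± 11.2 CPM against 2.19 to 11.5 CPM. Fcrl1, an Fc receptor-like gene best known from B cells, was at 84.7 ± 8.17 CPM in splenic CD4+ DCs and 34.4 ± 13.5 CPM in splenic CD8+ DCs. Closer likeness was found for Siglecg with N4bp3 (0.37), Carmil1 (0.52) and Mcm8 (0.54) and for Siglece with Adgre1 (0.61), Abhd15 (0.67) and Cyp4f16 (0.80). Cd33 was most like Deptor (0.59), Cysltr1 (0.62) and Tm7sf3 (0.65), Siglec1 most like Gda (0.65), Ecm1 (0.71) and Stxbp6 (0.73), and Siglech most like Nme9 (1.07), Plcb4 (1.09) and Gpr171 (1.14).

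Of 3 further Siglec genes, Siglec15 and Siglecf were at or near the limit of detection. Siglec15, an osteoclast Siglec, had 0 counts in all 15 libraries, and Siglecf, the eosinophil and alveolar macrophage Siglec, had 16 counts in splenic CD4+ DCs, 8 in monocytes and 0 to 2 elsewhere. The 3 eosinophil markers Ccr3, Prg2 and Epx summed to 15.3 to 31.5 CPM in splenic CD4+ DCs and at most 17.3 CPM elsewhere. In splenic CD4+ DCs nearly all of that was Ccr3, a chemokine receptor, and Epx had 0 counts. Prg2 was at 0.333 to 0.644 CPM there and at 1.90 to 6.40 CPM in LN DCs. By edgeR, Prg2 was higher and Ccr3 lower in LN than spleen, both in DC1 (45.6% of all genes called) and in DC2 (33.1%). Mag, a Siglec of myelinating glia, was at 6.23, 4.39 and 3.53 CPM in LN CD11b+ DCs and 2.58, 3.92 and 0.499 CPM in splenic CD4+ DCs, with 5 counts in all in splenic CD8+ and 1 in LN CD103+ DCs. It was lower in splenic CD8+ than CD4+ DCs (log2 fold change -3.40 ± 0.88, edgeR adjusted p = 0.00753) and lower in LN CD103+ than LN CD11b+ DCs (adjusted p = 0.000533), where the ratio of LN CD11b+ to LN CD103+ DCs was 103, with a 95% counting interval of 18.4 to 4058.

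The genes of the wider pathway were taken as 46 genes for sialic acid synthesis, sialyltransferases, sialidases, tail-binding enzymes, adaptors and counter-receptors, with Mag, Siglec15 and Siglecf. Of these, 35 passed the filter, and 199 of 350 tests over the 10 comparisons were called, a share of 56.9% against the same 39.7% of all genes.

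Among sialyltransferases, which put sialic acid on glycans and so make the ligands, 13 of 20 were tested. St8sia6, which adds a sialic acid to another, was at 225, 347 and 267 CPM in splenic CD4+ DCs, at 169, 196 and 167 CPM in LN CD11b+ DCs, and at 21.6, 10.5 and 6.29 CPM in splenic CD8+ DCs. Both DC2 subtypes were above all other libraries. St8sia6 was lower in splenic CD8+ than CD4+ DCs by a log2 fold change of -4.45 ± 0.36 (edgeR adjusted p = 5.43e-08) and lower in LN CD103+ than CD11b+ DCs by -2.30 ± 0.33 (adjusted p = 8.00e-05). St8sia1, the synthase of the ganglioside GD3, had the same 2 calls (-3.01 ± 0.38, adjusted p = 1.05e-05, and -1.93 ± 0.36, adjusted p = 0.00124). Of the 13, 3 were higher and 3 lower in splenic CD8+ than CD4+ DCs (27.4% of all genes called), and 1 was higher and 2 were lower in LN CD103+ than CD11b+ DCs (12.9%). St6gal1, which makes the linkage that CD22 binds, was at 164 ± 31.5 CPM in splenic CD4+ DCs and 123 ± 24.1 CPM in splenic CD8+ DCs (SD, n = 3), a difference that did not pass the test (log2 fold change -0.41 ± 0.20, edgeR adjusted p = 0.133). It was lowest in monocytes, at 39.0 ± 4.53 CPM, below splenic CD4+ DCs by a log2 fold change of -2.07 ± 0.21 (edgeR adjusted p = 2.31e-07).

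Nans and Cmah, of sialic acid synthesis, were higher in LN than splenic DCs. Nans, the sialic acid synthase, was at 135 ± 8.13 CPM in LN CD103+ and 86.6 ± 11.7 CPM in LN CD11b+ DCs, and at 34.7 ± 3.09 and 30.6 ± 4.35 CPM in splenic CD8+ and CD4+ DCs (SD, n = 3). It was higher in LN by 1.96 ± 0.19 in DC1 (edgeR adjusted p = 1.62e-07) and 1.5 ± 0.19 in DC2 (adjusted p = 8.34e-06) on the log2 scale. Cmah, which makes the glycolyl form of sialic acid that murine CD22 prefers, was higher in LN by 2.38 ± 0.51 in DC1 (adjusted p = 0.000803) and 2.39 ± 0.52 in DC2 (adjusted p = 0.00146). It was at 22.3, 7.0 and 8.3 CPM in LN CD103+ DCs and at 16.3, 8.3 and 12.6 CPM in LN CD11b+ DCs. In LN CD103+ DCs the level was led by replicate 1, the library with the most Cd79a. The part of B cell RNA in the level of Cmah was not tested. Of the 6 genes of synthesis and transport, these 2 were higher and 2 lower in LN in DC1 (45.6% of all genes called), and the same 2 were higher and 1 lower in DC2 (33.1%). Neu1, the lysosomal sialidase, was highest in monocytes, at 120, 119 and 126 CPM, and above each DC subtype, by 1.16 ± 0.20 on the log2 scale for the nearest, LN CD11b+ DCs (edgeR adjusted p = 0.000103).

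Downstream of the tails, Ptpn6, a phosphatase recruited by ITIMs, was at 864, 1482 and 1363 CPM in splenic CD4+ DCs and at 424, 359 and 252 CPM in splenic CD8+ DCs (CD8+ minus CD4+ -1.84 ± 0.22 on the log2 scale, edgeR adjusted p = 6.37e-06). It was also lower in LN CD11b+ than splenic CD4+ DCs (-1.36 ± 0.22, adjusted p = 9.11e-05). Monocytes had 1025, 1030 and 1130 CPM of Ptpn6, within the range of splenic CD4+ DCs, and it was not called between these subtypes. Tyrobp, the adaptor of Siglec-H, was at 1756 ± 126 CPM in monocytes, which had no Siglech count, and at 1515 ± 383 CPM in splenic CD4+ DCs against 399 ± 113 CPM in splenic CD8+ DCs (SD, n = 3), the subtype with the most Siglech. Of the 7 enzymes and adaptors that bind the tails, 3 (Ptpn11, Inpp5d and Shc1) were higher and 2 (Ptpn6 and Syk) lower in splenic CD8+ than CD4+ DCs (27.4% of all genes called). The phosphatase genes Inpp5d and Ptpn11 thus went the other way from Ptpn6. Inpp5d was at 389.5 to 564.1 CPM in splenic CD8+ DCs and 252.5 to 363.7 CPM in splenic CD4+ DCs, and Ptpn11 had means of 43.7 and 26.8 CPM. Monocytes had 6 of the 7 above LN CD11b+ DCs and 0 below (47.8%). Among counter-receptors, Cd24a, the partner of Siglec-G, was highest in splenic CD8+ DCs. Its level was 300, 348 and 317 CPM for splenic CD8+ DCs, and 29.7, 18.1 and 20.5 CPM for splenic CD4+ DCs (CD8+ minus CD4+ 3.81 ± 0.29, edgeR adjusted p = 2.41e-08). Of the 3 counter-receptors, 1 was higher and 1, Ptprc, was lower in splenic CD8+ than CD4+ DCs (27.4% of all genes called). Ptprc was at 1041, 878 and 832 CPM in splenic CD8+ DCs and at 2144, 1652 and 1979 CPM in splenic CD4+ DCs. The organ difference was itself different between DC1 and DC2 for Cd24a (-3.31 ± 0.38, edgeR adjusted p = 1.48e-05), for St8sia6 (2.15 ± 0.45, adjusted p = 0.00421) and for Ptpn6 (1.72 ± 0.31, adjusted p = 0.00120). They were 1 of 3 counter-receptors, 1 of 13 sialyltransferases and 1 of 7 tail-binding genes tested. The other pathway lists had 0 such calls, where 11.2% of all genes were called for the interaction.

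**Figure D4:**
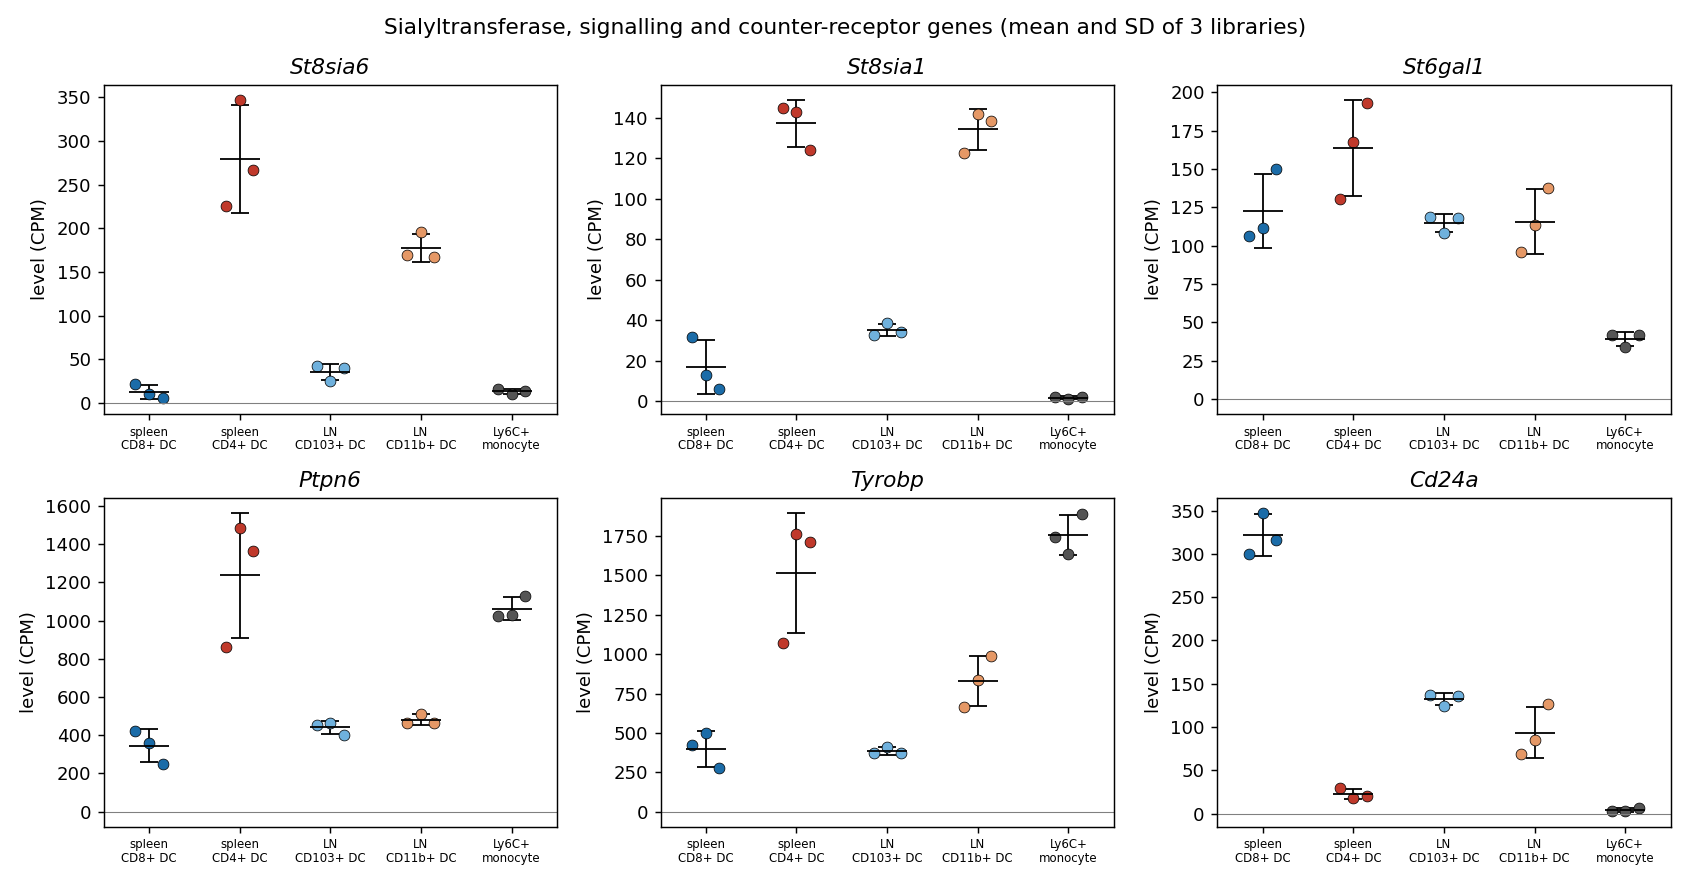
Level (CPM) of St8sia6, St8sia1, St6gal1, Ptpn6, Tyrobp and Cd24a in the 15 libraries, by subtype, with points for libraries and bars for the mean and SD of 3 libraries. St8sia6 was at 225 to 347 CPM in splenic CD4+ DCs and 6.29 to 21.6 CPM in splenic CD8+ DCs, and Cd24a at 18.1 to 29.7 and 300 to 348 CPM.

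The libraries held 4531243 to 10233914 counts on genes, so levels under 1 CPM rest on few reads. Among the genes used for sorting, Cd8a had a mean of 440 CPM in splenic CD8+ DCs, Cd4 145 CPM in splenic CD4+ DCs and Ly6c2 825 CPM in monocytes, each its highest subtype. Itgae, which encodes CD103, was at 27.1 CPM in LN CD103+ and 4.25 CPM in LN CD11b+ DCs, but at 107 CPM in splenic CD8+ DCs. Itgam, which encodes CD11b, was at 110 CPM in LN CD11b+ and 2.55 CPM in LN CD103+ DCs, and at 1053 to 1177 CPM in monocytes. RNA of H2-Ab1, an MHC II gene, was lower in LN DCs, although their gate asked for high surface MHC II. It was at 945 to 3199 CPM in LN CD103+ and 4560 to 8850 CPM in LN CD11b+ DCs. Splenic CD8+ DCs had 17320 to 21170 CPM and splenic CD4+ DCs 11180 to 20350 CPM. H2-Ab1 and Itgax, which encodes CD11c, were called lower in LN by edgeR in DC1 (45.6% of all genes called) and DC2 (33.1%).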

How the data were processed

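RNA of 15 murine libraries was analyzed. The deposited count values are raw. Per the authors, Ion Torrent reads, less the shortest, were aligned to mm10 by STAR (2.4.0j in the submitters' processing notes), and unique alignments were assigned to Ensembl genes without strand by featureCounts (Subread 1.5.2). The deposited TPM values come from these counts and the exon lengths of the authors' annotation. Monocyte libraries were sequenced in 2 runs and DC libraries in 1, and runs summed to the deposited counts in 15 of 15 libraries. Symbols for 37607 of 38924 identifiers and exon overlaps came from GENCODE vM21.

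Genes over 1 CPM in at least 3 libraries (14456) were tested in R 4.3.3 with edgeR 4.0.16 (TMM factors 0.883 to 1.10, quasi-likelihood fit, 1 coefficient for each subtype). Benjamini-Hochberg adjustment ran across the full set of genes within a comparison, and calls were made at 0.05. CPM is per 1000000 counts of the TMM-scaled library size. Log2 CPM had a prior count of 2. Where all libraries of a subtype were at 0, folds were bounded with 3 counts for the subtype as a whole. The 95% intervals for small counts are exact Poisson ones and reflect counting error alone. Unlike the study's own model, no term for the subject was fitted.

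The members, lists and tests were chosen with earlier results of these data known. Named pathway genes were those with the largest fold change among called genes without overlap (up to 4 a list and comparison), and named marker genes the 3 with the highest mean CPM of each list. Cd79a, Pax5, Cr2, Blk, Fcrla, Ms4a1, Tnfrsf13c, Marco, C1qa, C1qc, Timd4, Ly6g, Klk1, Cox6a2, Ccr9, Cd8a, Cd4, Ly6c2, Itgae, Siglec15 and Siglecf were named outside that rule, after their values were seen. Pacsin1 and Spib were named because they were called in splenic CD8+ against CD4+ DCs. Genes like a member had a mean of at least 10 CPM in their highest subtype. Ighd was not analyzed here, and 1 more B cell marker is not reported here and was left out of the list.

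Replicate numbers were checked for pairing. Deviations from the subtype mean correlated over 0.1 in every same-numbered pair for splenic CD8+ with CD4+ DCs (0.162 to 0.375), for splenic CD4+ with LN CD103+ (0.117 to 0.146) and LN CD11b+ DCs (0.197 to 0.266) and between the LN DCs (0.179 to 0.259), but not for other pairs of subtypes. The fit without a replicate block is the main one. Alternatives were RLE size factors, DESeq2 1.42.0, limma 3.58.1 with trend on log2(TPM + 1), no filter, filterByExpr, a fit of only the subtypes compared, a replicate block and leaving out each library. The scripts were tested on simulated counts.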

Additional observations from a re-analysis of the deposited data

How the results depend on the processing

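Over the alternatives, 1158 tests of single Siglec genes kept their side of the threshold, 27 moved past it, 21 fell short of it and 1 reversed. The reversed one was the interaction of Siglec1, 0.26 (adjusted p = 0.870) with edgeR and -1.21 (adjusted p = 0.0119, range over alternatives 0.0119 to 1.00) with limma on log2(TPM + 1), and the cause was not tested. The count of Siglec genes called for the interaction, 0 as reported, was 1 with RLE size factors, DESeq2, limma or only the subtypes compared, 3 without a filter and 2 with a replicate block, and 0 to 2 when 1 library was left out. Under the replicate block, Siglecg (1.38, edgeR adjusted p = 0.0306, range 0.00257 to 0.142) and Siglech (-4.17, 0.0296, range 3.57e-07 to 0.175) passed, and the block changed no other call of a Siglec gene. Same-numbered libraries did not pair in all the subtypes of that test.

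With only the subtypes compared, 2600 genes were called between splenic CD8+ and CD4+ DCs, against 3966 over all libraries. When 1 library was left out, the genes called between the LN DCs ranged from 1216 (without LN CD103+ DC replicate 2) to 2171, against 1872. The ratio of the highest to the next subtype ranged from 8.98 to 14.5 for Cd22, 1.63 to 2.61 for Cd33, 1.91 to 2.65 for Siglece, 2.23 to 3.22 for Siglecg and 1.55 to 6.94 for Siglech. Libraries with few counts of Siglech, Siglece in LN CD103+ DCs and Siglec1 in splenic DCs limit those values, and 3 pools per subtype limit all tests.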
